A study of Homo sapiens with 6 samples.

Results

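The 10 genes described here encode subunits of the transcription factor AP-1 and products of other immediate early genes: JUN, JUNB, JUND, FOS, FOSB, FOSL1, FOSL2, ATF3, EGR1 and CCN1. They were chosen by name, and their values came from the 134 probe sets that carry one of these symbols, alone, in the platform annotation, out of 1411399 on the array. CCN1 is listed there under its older symbol, CYR61. Of the 134, 125 had a mean over all arrays above the filter of 4.73, the median of all probe-set means on the log2 scale, and a gene's value was the mean of its probe sets above that filter. All 10 genes were among the 17841 that could be tested.

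RNA came from HCT116, an established line of human colorectal carcinoma cells whose titles carry the mark +/+, and was hybridised to Affymetrix exon arrays. The 6 arrays formed 3 groups of 2: cells given Nutlin-3, cells given 5-fluorouracil (5FU) and untreated control cells, all collected at 12 h according to the design text. Nutlin-3 is a small molecule that keeps MDM2 from binding p53, and 5FU is a chemotherapy drug that resembles uracil. The titles write Nutlin 3R, and the design text names DMSO for the cells whose labels give no treatment. The labels and the design text name different RNA kits, and no dose is stated in either. The labels do not say that the 2 arrays of a group were separate cultures, so the p-values measure the spread between these arrays, which may be technical. In an array of whole cultures, fewer cells making a transcript and less transcript per cell cannot be told apart.

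AP-1 is a dimer of leucine-zipper proteins. JUN proteins pair with each other, with FOS proteins or with ATF proteins, and the dimer binds short DNA sites in the promoters and enhancers of genes for growth, invasion and stress. Immediate early genes are transcribed within minutes of a growth factor or stress signal without new protein synthesis, and their transcripts are usually short-lived.

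Values on the 6 arrays correlated between 0.92 and 0.981 across genes. Array medians lay between 4.73 and 4.78. CDKN1A, the p53 target that encodes p21, checked the labels of treated against control cells, with 10.39 and 10.39 in Nutlin-3 cells and 10.12 and 10.03 in 5FU cells, against 8.32 and 8.27 in control cells. MDM2, a p53 target whose product degrades p53, gave 10.26 and 10.67 in Nutlin-3 cells and 10.04 and 10.31 in 5FU cells, against 8.64 and 8.57 in control cells. CDKN1A and MDM2 were high under both drugs, so they do not check which drug an array was given. Of 11 colonic epithelial markers 10 had a mean above the filter, with KRT8 between 11.14 and 11.31. Of 8 blood-cell markers 5 also had a mean above the filter, the highest being 5.60, and the lowest marker, PTPRC, lay between 3.20 and 3.34. Of 8 fibroblast markers 5 had a mean above the filter, the highest being 7.24 for COL1A1, and of 4 endothelial markers 2 did. Blood-cell markers summed over the list lay between 36.43 and 37.49 in Nutlin-3 cells, 35.75 and 36.97 in 5FU cells, and 35.92 and 37.05 in control cells. Sums over the fibroblast and endothelial lists also overlapped between groups. Those over the colonic epithelial list did not, with 89.46 to 89.77 in Nutlin-3 cells, 90.26 to 90.8 in 5FU cells and 88.12 to 89.09 in control cells.

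JUN and CCN1 were the members with the widest gap between the drugs. Both were lower in Nutlin-3 cells than in 5FU cells, JUN by 2.38-fold and CCN1 by 2.23-fold, and both drugs' values lay on opposite sides of control. Whether these gaps passed the test depended on the processing, as given below. ATF3 had its highest values after 5FU. EGR1 had its lowest values in the drug-treated cells. The 3 group means of JUND, and likewise of FOSL2, lay within 0.08 of each other.

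Limma, a linear model that shares the variance across genes, was fitted to all 17841 genes, with calls at a p below 0.05 after Benjamini-Hochberg adjustment. For Nutlin-3 against 5FU 2 of the 10 members were called, both lower, while 0.633% of all genes were called and 0.572% were called lower. There 4 members had an unadjusted p below 0.05, against 13.3% of all genes. For Nutlin-3 against control limma called 0 of the 10, against 1.22% of all genes, and 3 members had an unadjusted p below 0.05, against 10.2% of all genes. For 5FU against control limma called 0 of the 10, against 0.448% of all genes, and 5 members had an unadjusted p below 0.05, against 10.7% of all genes. The comparisons with control share the same 2 control arrays.

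Counted by arrays that did not overlap, Nutlin-3 lay above 5FU in 1 member and below it in 8, against 20.8% and 25.2% of all genes. Nutlin-3 lay above control in 1 member and below it in 6, against 16.2% and 18% of all genes. 5FU lay above control in 5 members and below it in 3, against 20% and 18% of all genes. The median difference over the 10 was -0.26 for Nutlin-3 against 5FU, -0.07 for Nutlin-3 against control and 0.16 for 5FU against control, beside -0.0052, 0.0006 and 0.0014 over all genes. An exact two-sided permutation p for a single gene is at least 0.333 in groups of this size.

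**Figure D1:**
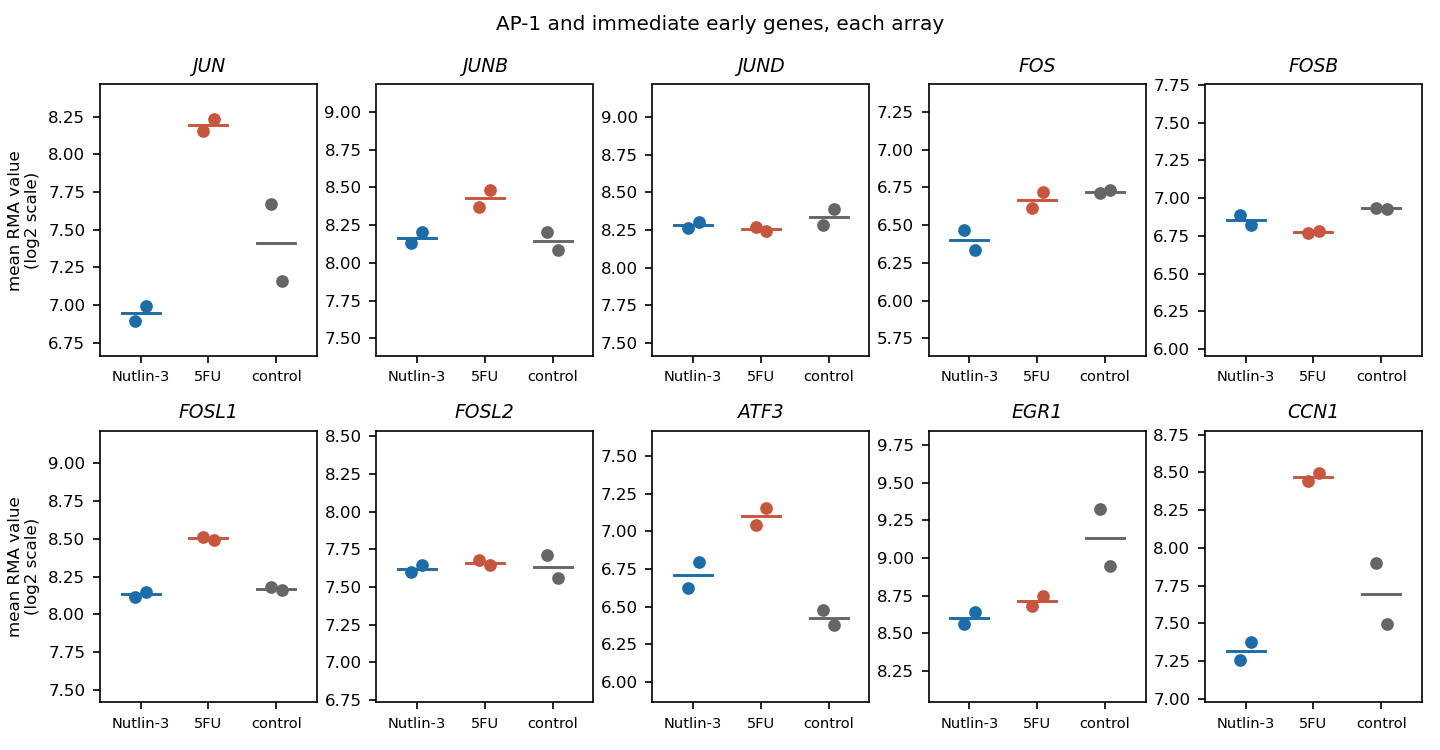
Each point is 1 array's value for the gene, the mean RMA value of its probe sets on the log2 scale, and each bar is the mean of the 2 arrays of a group. Panels span the same height on the log2 scale. The means of JUN were 6.94 in Nutlin-3 cells, 8.19 in 5FU cells and 7.41 in control cells, and those of CCN1 were 7.31, 8.47 and 7.70 in the same order.

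JUN encodes the AP-1 subunit c-Jun, which JNK phosphorylates under stress and which acts on its own promoter. JUN values were 6.89 and 6.996 in Nutlin-3 cells and 8.15 and 8.23 in 5FU cells, against 7.67 and 7.16 in control cells. Neither drug's arrays overlapped the control arrays, and the control arrays stood further apart than the arrays of either drug. The difference of Nutlin-3 from 5FU was -1.25 on the log2 scale (SE 0.19, 95% interval -1.69 to -0.81, limma adjusted p = 0.0468). Against control, JUN differed by -0.47 after Nutlin-3 (-0.91 to -0.03, adjusted p = 0.461) and by 0.78 after 5FU (0.34 to 1.22, adjusted p = 0.188), neither past the threshold. In 5FU cells 261 of the 17841 genes, JUN included, had a difference of at least that height.

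The probe sets of JUN gave the same order. All 13 used probe sets had both Nutlin-3 arrays below both 5FU arrays, a pattern found in 18% of all 705699 probe sets above the filter, and their differences of Nutlin-3 from 5FU ran from -2.19 to -0.46. In 5FU cells 11 of 13 lay above both control arrays, against 17.6% of all probe sets, with differences between 0.38 and 1.18. In Nutlin-3 cells 6 of 13 lay below both control arrays, against 15% of all probe sets, with differences between -1.27 and 0.16. Probe sets of 1 gene read the same RNA and are not replicates, and limma passed no single probe set of JUN (lowest adjusted p = 0.204, Nutlin-3 against 5FU). Over all probe sets limma passed 0.00142% for Nutlin-3 against 5FU and 0% against control for either drug.

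CCN1 encodes a secreted matrix protein that binds integrins and is a known immediate early target of SRF and of YAP with TEAD factors. CCN1 values were 7.25 and 7.38 in Nutlin-3 cells and 8.44 and 8.50 in 5FU cells, against 7.90 and 7.49 in control cells. The order was that of JUN, with no overlap between any of the groups. Nutlin-3 differed from 5FU by -1.16 (SE 0.17, 95% interval -1.55 to -0.76, limma adjusted p = 0.0442). The difference from control was -0.38 after Nutlin-3 (-0.78 to 0.02, adjusted p = 0.519) and 0.77 after 5FU (0.38 to 1.17, adjusted p = 0.148). All 11 used probe sets of CCN1 had lower Nutlin-3 arrays than 5FU arrays without overlap, against 18% of all probe sets. They split against control: 7 of 11 had both 5FU arrays above both control arrays, against 17.6% of all probe sets, with a median difference of 1.16 over the 11, while probe set 2344901 gave -0.36 in 5FU cells and -1.44 in Nutlin-3 cells.

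The calls of JUN and CCN1 between the drugs did not hold when any 1 of the 4 drug arrays was left out. The adjusted p was then between 0.0938 and 0.374 for JUN and between 0.0864 and 0.368 for CCN1, while the differences stayed between -1.30 and -1.20 for JUN and between -1.22 and -1.09 for CCN1. With all 6 arrays both calls were also lost when all probe sets of a gene were averaged (adjusted p = 0.0821 for JUN and 0.0661 for CCN1), with the median over probe sets (0.0758 and 0.0903), with arrays centred on their medians (0.0852 and 0.0817) and with the replicate number as a block (0.206 and 0.199). JUN was called in 6 and CCN1 in 7 of 15 alternatives, and both differences kept their sign in all 15.

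The control arrays of JUN, EGR1 and CCN1 differed by 0.51, 0.38 and 0.41, control replicate 1 being the higher, against a median size of 0.195 over all genes; its part in the result was not tested. Without control replicate 1 the difference of Nutlin-3 from control was -0.21 for JUN and -0.18 for CCN1, and without control replicate 2 it was -0.72 and -0.58. For 5FU against control the values were 1.04 and 0.98 without control replicate 1 and 0.53 and 0.57 without control replicate 2.

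**Figure D2:**
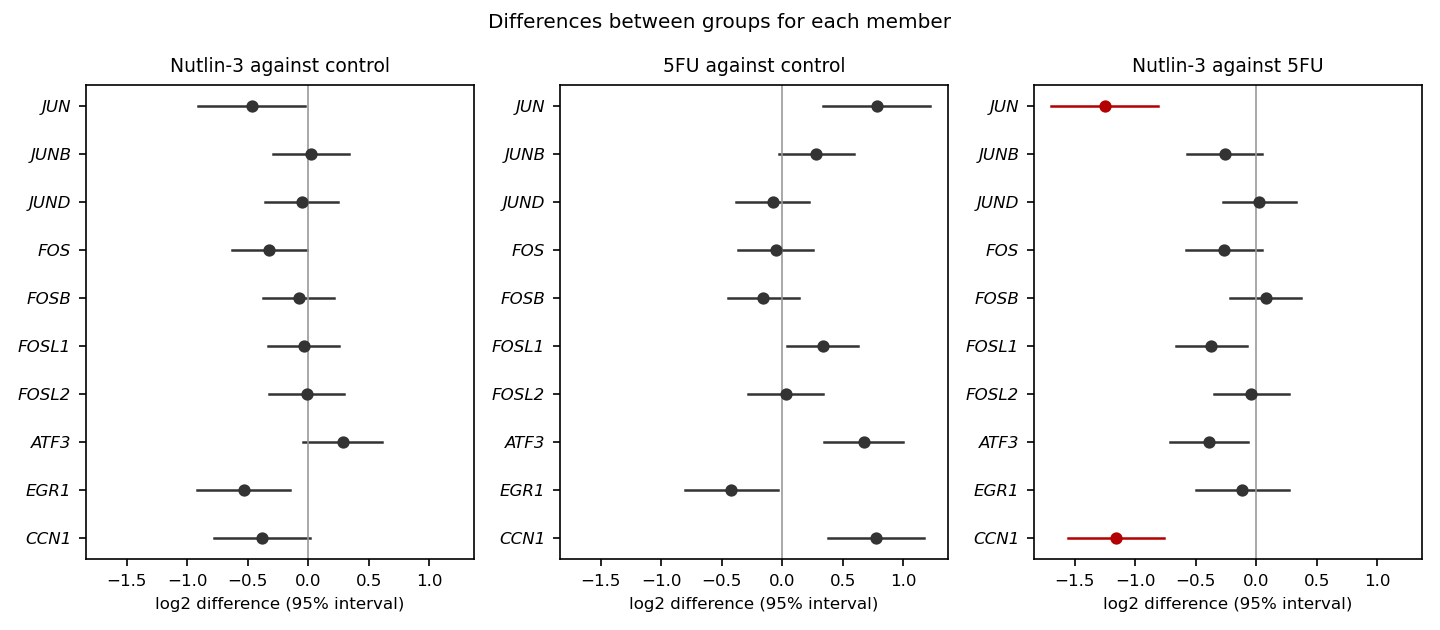
Points are limma log2 differences for each member in each comparison and lines are 95% intervals; the genes called at an adjusted p below 0.05 are red. JUN at -1.25 and CCN1 at -1.16 are the red points, both for Nutlin-3 against 5FU.

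JUNB, a Jun protein that often restrains c-Jun and proliferation, gave 8.13 and 8.20 in Nutlin-3 cells and 8.37 and 8.48 in 5FU cells, against 8.20 and 8.09 in control cells. The 5FU arrays lay above the control arrays, by 0.28 (95% interval -0.03 to 0.59, adjusted p = 0.527), and Nutlin-3 overlapped control with a difference of 0.02. JUND, the Jun protein that is present in resting cells, gave 8.26 and 8.30 in Nutlin-3 cells and 8.27 and 8.24 in 5FU cells, against 8.28 and 8.39 in control cells. Its differences were -0.05 after Nutlin-3 (-0.35 to 0.25) and -0.08 after 5FU (-0.38 to 0.22). Within the Jun family the widest gap between group means was 1.25 for JUN, 0.28 for JUNB and 0.08 for JUND.

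FOS encodes c-Fos, the classical serum-induced partner of Jun proteins. FOS values were 6.47 and 6.34 in Nutlin-3 cells and 6.62 and 6.72 in 5FU cells, against 6.72 and 6.73 in control cells. Both Nutlin-3 arrays were below all others, with a difference from control of -0.32 that was not past the threshold (-0.63 to -0.01, adjusted p = 0.468). In 6 of its 9 used probe sets, against 15% of all probe sets, the Nutlin-3 arrays lay below both control arrays. For 5FU against control FOS differed by -0.06 (-0.37 to 0.25), and this sign turned with the median over probe sets (0.25) and with probe sets above the upper quartile alone (0.09).

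FOSB, a Fos protein with a short splice form that lacks part of the activation domain, gave 6.89 and 6.82 in Nutlin-3 cells and 6.77 and 6.78 in 5FU cells, against 6.94 and 6.93 in control cells. The arrays of both drugs lay below control, by differences of -0.08 for Nutlin-3 and -0.16 for 5FU (95% interval -0.45 to 0.14), and neither passed the test. With the median over probe sets the Nutlin-3 difference of FOSB was 0.07. FOSL2, which encodes Fra-2, was measured by the most probe sets of any member, 21, and its group means lay within 0.04 of each other. Its values were 7.60 and 7.65 in Nutlin-3 cells and 7.68 and 7.65 in 5FU cells, against 7.71 and 7.56 in control cells. The 95% intervals were -0.32 to 0.30 for Nutlin-3 and -0.28 to 0.34 for 5FU against control.

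FOSL1 encodes Fra-1, a Fos protein that is prominent in invasive epithelial tumour cells and is sustained by ERK signalling. FOSL1 values were 8.12 and 8.15 in Nutlin-3 cells and 8.51 and 8.50 in 5FU cells, against 8.18 and 8.16 in control cells. The 5FU arrays stood above the other 4, and the difference from control of 0.33 (0.04 to 0.63, adjusted p = 0.393) did not pass the threshold. Nutlin-3 differed from 5FU by -0.37 (-0.66 to -0.08, adjusted p = 0.271). In 8 of 11 probe sets, against 17.6% of all probe sets, both 5FU arrays exceeded both control arrays. The probe-set IDs of FOSL1 fall in separate ranges, 3 from 2743140 to 2743143 and 8 from 3377993 to 3378005, and the median 5FU difference was 0.50 in the first and 0.32 in the second. IDs of the members otherwise ran in the order of their chromosomes. The first range lay between those of FOSL2 on chromosome 2 and EGR1 on chromosome 5, while FOSL1 lies on chromosome 11. Whether these 3 probe sets read FOSL1 was not tested. All 3 were among the 8 counted above, and the 5FU difference of the gene was smaller without them.

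ATF3 encodes a stress-induced leucine-zipper protein that pairs with Jun proteins and is also a known p53 target. ATF3 values were 6.63 and 6.80 in Nutlin-3 cells and 7.04 and 7.15 in 5FU cells, against 6.48 and 6.38 in control cells. The arrays ranked 5FU, Nutlin-3 and control without overlap. The difference from control was 0.67 after 5FU (0.35 to 1.00, adjusted p = 0.13) and 0.28 after Nutlin-3 (-0.04 to 0.61, adjusted p = 0.575), and Nutlin-3 differed from 5FU by -0.39 (-0.71 to -0.06, adjusted p = 0.296). None of these passed the threshold, and 406 of the 17841 genes, ATF3 included, had a 5FU difference of at least that height.

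The mean over ATF3 probe sets mixed unlike readings. In 5FU cells 4 of 15 probe sets differed from control by at least 1 on the log2 scale and 5 differed by less than 0.3 in size. Probe set 2379153 had 8.30 and 8.86 in Nutlin-3 cells and 9.67 and 9.97 in 5FU cells, against 8.24 and 8.01 in control cells. Probe set 2379136 had 8.52 and 8.59 in Nutlin-3 cells and 8.59 and 8.56 in 5FU cells, against 8.54 and 8.71 in control cells. Probe set 2379147 gave the largest 5FU difference, 1.99, on control arrays that were themselves 6.76 and 4.72. ATF3 has several transcript starts in RefSeq, and which of its transcripts each probe set reads was not analysed here.

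**Figure D3:**
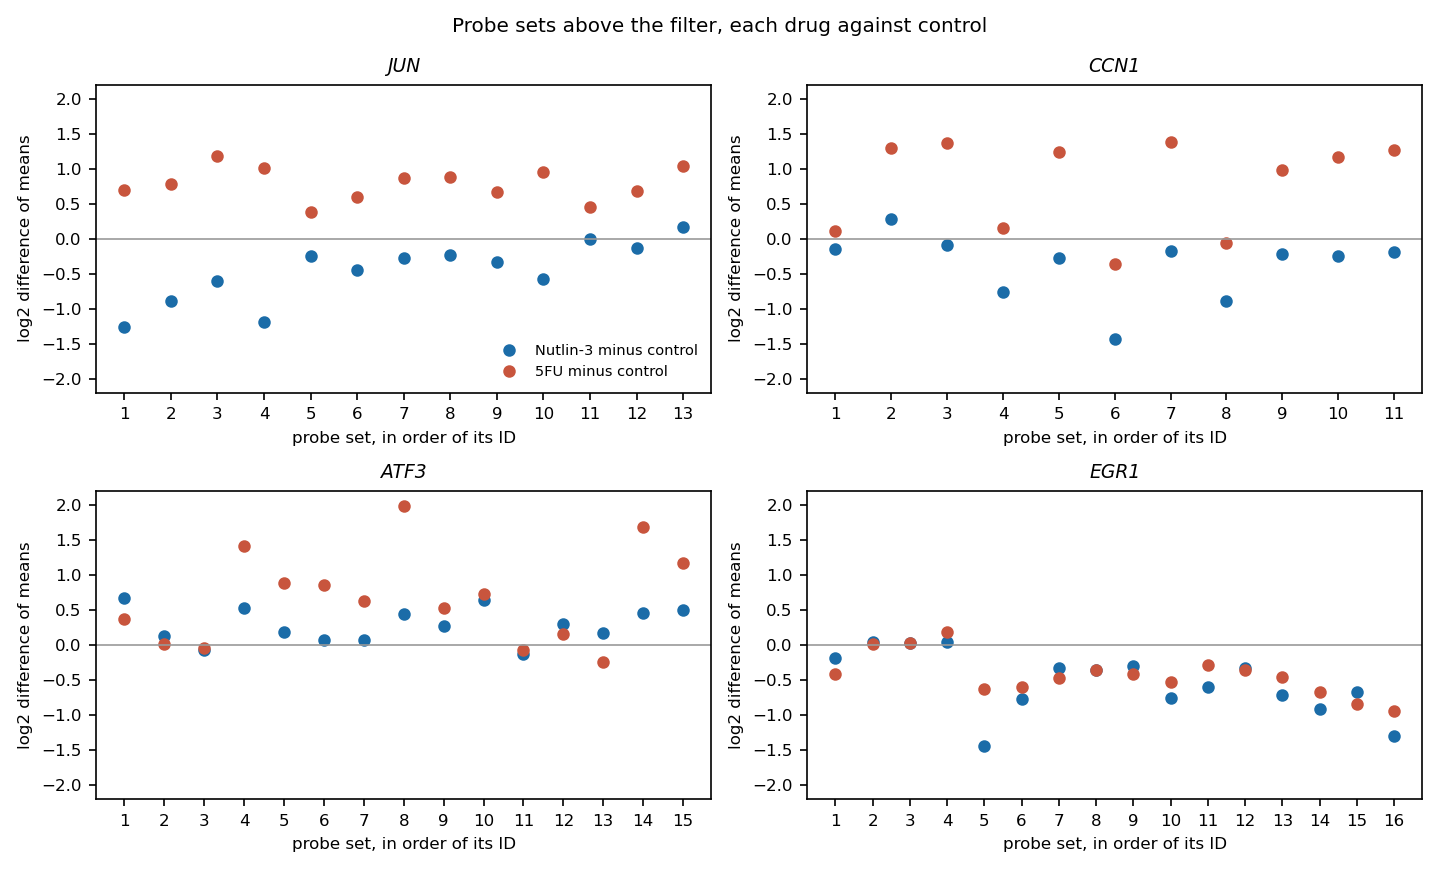
Each point is the difference of group means on the log2 scale for 1 probe set above the filter, in order of probe-set ID, for Nutlin-3 minus control (blue) and 5FU minus control (orange-red). In JUN all 13 probe sets lay above 0 for 5FU; in ATF3 the 5FU differences ran from -0.25 to 1.99; in EGR1 the first 4 probe sets lay between -0.41 and 0.18 for both drugs and the other 12 lay below 0.

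JUN has a known mode of control, in which dimers of c-Jun with ATF2 bind a site in its promoter. The bases before the JUN start and before the upstream ATF3 start are shown because both hold the motif TGACATCA, printed in capitals. They come from RefSeq, build GRCh38.p14, with JUN on the minus strand at chr1:58784048-58784297 and the upstream start of ATF3 on the plus strand at chr1:212565157-212565406, each 250 bases 5′ to 3′.
JUN: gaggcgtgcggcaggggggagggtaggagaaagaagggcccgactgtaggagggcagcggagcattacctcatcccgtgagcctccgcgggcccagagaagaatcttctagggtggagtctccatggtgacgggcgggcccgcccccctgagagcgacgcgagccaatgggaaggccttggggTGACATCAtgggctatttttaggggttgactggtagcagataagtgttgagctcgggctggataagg
ATF3: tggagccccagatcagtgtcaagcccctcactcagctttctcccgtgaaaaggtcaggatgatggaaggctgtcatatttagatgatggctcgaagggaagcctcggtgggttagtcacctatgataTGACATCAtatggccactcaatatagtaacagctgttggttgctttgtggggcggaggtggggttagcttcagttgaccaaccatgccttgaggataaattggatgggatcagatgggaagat
The motif lies at bases -67 to -60 from the JUN start and at -123 to -116 from the ATF3 start. Searched on both strands, TGACATCA was in 2.61% of 35116 RefSeq promoter windows of 300 bases, and among the members it was found in the window of JUN and in 1 of the 2 ATF3 windows. The window of the other ATF3 start held no match, and whether dimers of c-Jun with ATF2 act at either ATF3 start was not tested. The table held 9 windows for 8 members and none was used for FOSL1 and CCN1. A match describes the letters and shows no binding in these cells.

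EGR1 encodes a zinc-finger transcription factor induced by serum, growth factors and radiation. EGR1 values were 8.56 and 8.64 in Nutlin-3 cells and 8.68 and 8.75 in 5FU cells, against 9.32 and 8.95 in control cells. Both drugs lay below control without overlap, with differences of -0.53 for Nutlin-3 (-0.92 to -0.15, adjusted p = 0.272) and -0.42 for 5FU (-0.80 to -0.04, adjusted p = 0.413). Neither difference passed the threshold. The drugs differed from each other by -0.11 (-0.50 to 0.27). Without control replicate 1 the differences from control were -0.34 for Nutlin-3 and -0.23 for 5FU, and without control replicate 2 they were -0.72 and -0.61.

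EGR1 probe sets read differently at the 2 ends of their ID range. In 9 of the 16 the arrays of a drug lay below both control arrays, for each drug, against 15% of all probe sets for Nutlin-3 and 17.6% for 5FU. The first 4, from 2830872 to 2830875, had a median difference of 0.03 for Nutlin-3 and 0.02 for 5FU against control. The other 12, from 2830878 to 2830889, had medians of -0.69 for Nutlin-3 and -0.50 for 5FU, and each of them was below 0 for both drugs. Probe set 2830878 was at 6.72 and 6.70 in Nutlin-3 cells and 7.28 and 7.77 in 5FU cells, against 8.65 and 7.66 in control cells. The split was made after the values were seen, and the mean over all 16 probe sets includes both stretches.

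The promoter of EGR1 is shown as the example of a serum response element, the binding site of SRF known as the CArG box. The 250 bases before its start, on the plus strand at chr5:138465229-138465478 of GRCh38.p14 in RefSeq, hold 2 such boxes, in capitals.
EGR1: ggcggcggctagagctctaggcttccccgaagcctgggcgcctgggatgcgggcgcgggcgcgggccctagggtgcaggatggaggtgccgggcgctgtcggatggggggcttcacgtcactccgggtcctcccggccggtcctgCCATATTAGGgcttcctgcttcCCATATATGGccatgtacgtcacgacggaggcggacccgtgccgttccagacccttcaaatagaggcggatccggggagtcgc
They lie at -105 to -96 and at -83 to -74. A CArG box was in 1.29% of the 35116 windows, searched on both strands, and in the members' windows it was found in that of EGR1. The EGR-type motif GCGNGGGCG was found at -198 to -190 of the same window and in 9.43% of all windows. The AP-1 pattern TGANTCA, where N stands for any base, was in 7.71% of windows. Among the members it was found in FOSL2, as TGACTCA at bases 5 to 11 after the start. The cyclic AMP response motif TGACGTCA (1.85% of windows) was found in JUND.

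The other genes of the pathway were taken as lists with no test of the list. Among 31 tested genes known as AP-1 targets limma called 3 for 5FU against control, all higher, against 0.448% of all genes. In that comparison 20 of the 31 differences lay above 0, beside 8968 of the 17841 genes. There 9 had an unadjusted p below 0.05, beside 10.7% of all genes. For Nutlin-3 against 5FU limma called 2 of the 31, both lower, while 0.572% of all genes were called lower. The 3 called after 5FU were HBEGF, TGFA and CXCL8. HBEGF, a ligand of the EGF receptor, gave 7.59 and 7.58 in Nutlin-3 cells and 8.48 and 8.62 in 5FU cells, against 7.17 and 7.03 in control cells. It rose 2.73-fold after 5FU (limma adjusted p = 0.0225) and was 1.95-fold lower in Nutlin-3 cells than in 5FU cells (adjusted p = 0.0416). TGFA, another ligand of that receptor, rose 2.17-fold after 5FU (adjusted p = 0.0451), with 8.13 and 8.30 in Nutlin-3 cells and 8.73 and 8.88 in 5FU cells, against 7.83 and 7.54 in control cells. The chemokine CXCL8, also a target of NF-kappaB, rose 1.99-fold after 5FU (adjusted p = 0.0379) and was 1.94-fold lower in Nutlin-3 cells than in 5FU cells (adjusted p = 0.0378). None of the 31 was called for Nutlin-3 against control in limma, against 1.22% of all genes. There 7 had an unadjusted p below 0.05 beside 10.2% of all genes, led by the membrane protease MMP14 at 0.62 (adjusted p = 0.0919) and the integrin subunit ITGB4 at 0.61 (adjusted p = 0.103). TGFA and CXCL8 kept none of these calls when any 1 of the 6 arrays was left out, and HBEGF kept its call against control in 2 of those 6 fits and its call against 5FU in 0 (highest adjusted p = 0.403). Without 1 array the 5FU differences from control stayed between 1.37 and 1.52 for HBEGF, 0.98 and 1.27 for TGFA, and 0.94 and 1.05 for CXCL8. The list medians were 0.09 for Nutlin-3 and 0.16 for 5FU against control and 0.05 for Nutlin-3 against 5FU.

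Limma called 2 of 35 other immediate early genes higher than control after Nutlin-3 and the same 2 after 5FU, namely BTG2 and PLK3. Both are also known p53 targets: BTG2 is antiproliferative and PLK3 is a stress kinase of the polo family. BTG2 gave 9.07 and 9.21 in Nutlin-3 cells and 9.09 and 9.28 in 5FU cells, against 7.68 and 7.49 in control cells. It rose 2.95-fold after Nutlin-3 (limma adjusted p = 0.00982) and 3.03-fold after 5FU (adjusted p = 0.0225). PLK3 rose 2.00-fold after Nutlin-3 (adjusted p = 0.019) and 2.13-fold after 5FU (adjusted p = 0.0283). GEM, a small GTPase that restrains calcium channels, went the other way after Nutlin-3, with 6.01 and 6.20 in Nutlin-3 cells and 7.15 and 7.32 in 5FU cells, against 7.04 and 7.02 in control cells. It fell 1.90-fold against control (adjusted p = 0.0328) and was 2.19-fold lower in Nutlin-3 cells than in 5FU cells (adjusted p = 0.0309). Leaving out 1 array at a time, the BTG2 call held in 5 of 6 fits for Nutlin-3 and 2 of 6 for 5FU, and that of PLK3 in 2 of 6 for each drug. The GEM call held in 0 of 6 against control and in 2 of 6 against 5FU, with differences between -1.02 and -0.83 against control. Of all genes, 1.22% were called in Nutlin-3 cells and 0.448% in 5FU cells relative to control, and 0.633% between the drugs. Unadjusted limma p-values below 0.05 were found in 12, 13 and 9 of the 35 in that order, beside 10.2%, 10.7% and 13.3% of all genes. The list medians were 0.02 for Nutlin-3 and 0.20 for 5FU against control and -0.21 for Nutlin-3 against 5FU. Above 0 lay 3 of the 35 differences of Nutlin-3 from 5FU, 19 of those of Nutlin-3 from control and 30 of those of 5FU from control, beside 8774, 8945 and 8968 of the 17841 genes.

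**Figure D4:**
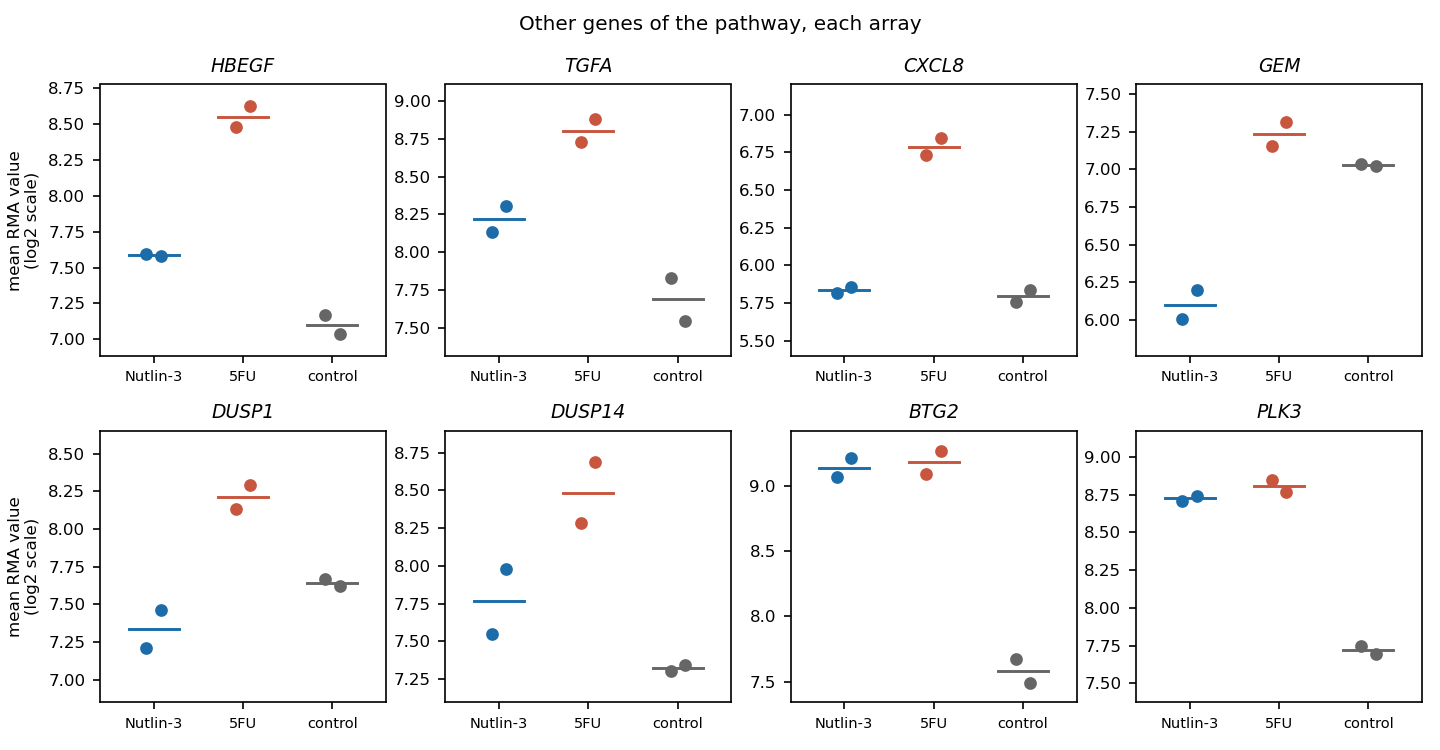
Each point is 1 array's value on the log2 scale for a gene outside the 10 members, and bars are group means; the span of the axis differs between panels. HBEGF, TGFA and CXCL8 were highest in 5FU cells, GEM was lowest in Nutlin-3 cells at 6.01 and 6.20, and BTG2 and PLK3 were high in both drugs.

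MAP kinase feedback genes, the phosphatases and adaptors that limit ERK, JNK and p38, had 0 of 18 called by limma in each comparison. Limma called 0.633% of all genes for Nutlin-3 against 5FU, 1.22% for Nutlin-3 against control and 0.448% for 5FU against control. At an unadjusted p below 0.05 there were 6 of the 18 for Nutlin-3 against 5FU, beside 13.3% of all genes. The count was 1 when Nutlin-3 was set against control, beside 10.2% of all genes, and 5 when 5FU was, beside 10.7%. DUSP14, a dual-specificity phosphatase, was at 7.55 and 7.98 in Nutlin-3 cells and 8.28 and 8.69 in 5FU cells, against 7.30 and 7.34 in control cells (5FU difference 1.16, adjusted p = 0.0866). DUSP1, which dephosphorylates JNK and p38, was at 7.21 and 7.46 in Nutlin-3 cells and 8.14 and 8.29 in 5FU cells, against 7.67 and 7.62 in control cells (Nutlin-3 minus 5FU -0.88, adjusted p = 0.0657). These arrays did not overlap. SPRY1, an inhibitor of receptor tyrosine kinase signalling, differed by 0.78 after Nutlin-3 (adjusted p = 0.116).

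Leucine-zipper partners of AP-1 had 0 of 14 called by limma in each comparison. Of all genes 0.633% were called for Nutlin-3 against 5FU, 1.22% for Nutlin-3 against control and 0.448% for 5FU against control. An unadjusted p below 0.05 was found in 1 of the 14 for Nutlin-3 against 5FU (13.3% of all genes), 0 for Nutlin-3 against control (10.2%) and 1 for 5FU against control (10.7%). MAFF, a small Maf protein, had the lowest p, with a 5FU difference of 0.47 (adjusted p = 0.243) and a difference of Nutlin-3 from 5FU of -0.36 (adjusted p = 0.299). Of the upstream kinases and factors 0 of 25 were called by limma in each comparison, beside the same 0.633%, 1.22% and 0.448% of all genes. An unadjusted p below 0.05 was found in 4 of the 25 for Nutlin-3 against 5FU, 1 for Nutlin-3 against control and 2 for 5FU against control. As shares these were close to or below the 13.3%, 10.2% and 10.7% of all genes. ELK3, a ternary complex factor that works with SRF, was highest in both 5FU arrays (5FU difference 0.79, adjusted p = 0.14, and Nutlin-3 difference 0.01). TEAD4, a DNA-binding partner of YAP, was at 7.66 and 7.66 in Nutlin-3 cells and 7.81 and 7.92 in 5FU cells, against 8.16 and 8.23 in control cells (Nutlin-3 difference -0.54, adjusted p = 0.146).

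The genes most like the 3 members with the widest group means were found by Pearson's r over the 6 arrays, which share the same 3 treatments. CCN1 was the gene most like JUN among all those tested, with r = 0.998, followed by ZNF34 (0.994) and CCT7P2 (0.994). CCT7P2 (0.998), JUN and ZNF34 (0.997) headed the genes like CCN1. TMBIM1 (0.997), LSMEM1 (0.995) and PLAU (0.995), which encodes urokinase, headed those like ATF3. Over these 6 arrays 527 of the 17841 genes had an r above 0.9 with JUN, 526 with CCN1 and 472 with ATF3. Among members, ATF3 ran with JUNB at 0.924 and against FOSB at -0.97, and EGR1 with JUN at 0.176.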

How the data were processed

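RNA from 6 HCT116 samples was read on Affymetrix exon arrays. The authors deposited RMA values on the log2 scale for each probe set, per the submitters' processing notes, which give no version or settings. Background correction and array normalization were thus fixed. Of 1411399 probe sets, 0 lacked a value. Precision is limited by the number of arrays, and scan batches are not known.

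In the platform annotation 357604 probe sets had 1 gene symbol, 15322 had several and 1038473 had none. Symbols were updated through RefSeq's gene table of GRCh38.p14: 16472 were current, 2966 updated by a unique synonym and 122 kept. A gene's value was the mean of its probe sets brighter than 4.73 on average, the median over the array, where 2 or more were left. Limma 3.58.1 in R 4.3.3 (lmFit and eBayes, 3 groups, no block, 3 residual degrees of freedom) gave differences, intervals and p-values, adjusted by Benjamini-Hochberg over all 17841 genes; 705699 probe sets were fitted likewise. The fit was tried on simulated data with independent noise in each array. Deviations shared between arrays were not simulated, so that run does not test the fit under them. Motifs were searched in RefSeq promoter windows from 250 bases before to 50 after each start.

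The members and lists were chosen with earlier results of these data known. Some list genes are not reported here. Besides the members, the text names up to 4 called genes of a list and comparison with the largest difference, or up to 2 with the smallest p where none was called, CDKN1A, MDM2 and the 3 genes most like each of 3 members; the other observations add genes chosen after their values were seen. Deviations of same-numbered arrays from their group means correlated at 0.634 between Nutlin-3 and 5FU and at -0.565 and -0.525 between each of these and control, so the numbers were not taken as pairs. Alternatives were other probe-set filters, the median over probe sets, other scalings and variance models, 2-group fits, a replicate block and leaving out each array.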

Additional observations from a re-analysis of the deposited data

Results flagged for a closer look

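With 2 arrays a group no single array could be tested as an outlier. JUN and CCN1 differed between the drugs by limma, with Nutlin-3 minus 5FU at -1.25 for JUN and -1.16 for CCN1 on the log2 scale. FOSL1 had both Nutlin-3 arrays below and both 5FU arrays above the 2 control arrays, with Nutlin-3 minus 5FU at -0.37 and an adjusted p of 0.271, which did not pass the threshold.

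Of the 9 member probe sets left out because their mean lay below 4.73, 3 had both 5FU arrays above that level and above both control arrays. JUN probe set 2415086 had 5.56 and 6.13 in 5FU cells, against 4.28 and 3.51 in control cells, a difference of 1.95. JUN probe set 2415095 had 5.60 and 6.19 in 5FU cells, against 4.70 and 2.62 in control cells, a difference of 2.24. CCN1 probe set 2344907 had 5.07 and 5.25 in 5FU cells, against 4.79 and 3.32 in control cells, a difference of 1.11. The gene values of JUN and CCN1 did not include these readings. These 3 were found by a rule that looks only for high drug arrays, so their direction was set by the rule. In the other left-out probe sets 5FU minus control was -0.07 and -0.27 in JUN, -0.74 in FOS, -0.56 in FOSB and 0.34 and 0.76 in ATF3. When all probe sets of a gene were averaged, the calls of JUN and CCN1 between the drugs were lost.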

How the results depend on the processing

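Of 30 member differences, 20 kept their sign in all 15 alternatives, among them those of JUN, CCN1 and ATF3 in the 3 comparisons and of EGR1 against control; no reversed value passed the threshold, and for calls lost or gained the cause was not tested. Members called for Nutlin-3 against 5FU numbered 2 at first, 1 (CCN1) with trend and robust variances and 0 with all probe sets of a gene, with the median over probe sets, with arrays centred on their medians or with the replicate block, and ranged from 0 to 2 when 1 array was left out. JUN and CCN1 had an adjusted p of 0.206 and 0.199 with the replicate block. Same-numbered arrays deviated together between the drugs (r = 0.634) and in opposite directions between each drug and control (r = -0.565 for Nutlin-3 and -0.525 for 5FU). Whether the numbers mark shared batches is thus not settled. The main fit treated the arrays as independent and did not model these shared deviations. Genes called for Nutlin-3 against control numbered 217, and 380 with probe sets above the upper quartile, 127 with centred arrays, 514 with quantile normalization, 2 with the replicate block and 5 to 149 without 1 array. For 5FU against control they numbered 80, and 151, 14, 242 and 1 in that order, 39 with the median over probe sets and 1 to 63 without 1 array. For Nutlin-3 against 5FU they numbered 113 (11 higher), and 234, 37, 416 (100 higher) and 0 in that order, 69 with the median over probe sets or with all probe sets, and 3 to 104 without 1 array. The named list genes were run through the same alternatives after the data were seen, and each of their calls was lost with the replicate block. With the control numbers exchanged in the block, a fit chosen after seeing the data, genes called numbered 1788 of the 17841 (2 of them members) for Nutlin-3 against control, 1882 (4 members) when 5FU was set against control and 2821 (4 members) between the drugs. That block was matched to the correlations seen in these same arrays, so no call was drawn from its counts. Signs turned only for differences of at most 0.11 in size: with the upper quartile, FOS 0.0861 (5FU against control) and JUND -0.0314 (Nutlin-3 against 5FU); with the median over probe sets, FOSB 0.0663 (Nutlin-3 against control) and FOS 0.25 (5FU against control); with quantile normalization, JUND 0.0602, FOSL1 0.0618 and FOSL2 0.0531 (Nutlin-3 against control), FOSL2 -0.0084 (5FU against control) and FOSL2 0.0614 and EGR1 0.0678 (Nutlin-3 against 5FU). Without 1 array the Nutlin-3 differences from control ranged from -0.0901 to 0.066 for FOSL2, -0.0359 to 0.0819 for JUNB and -0.11 to 0.0008 for JUND, and the 5FU difference of FOSL2 from -0.0501 to 0.106. Without the 3 FOSL1 probe sets of the separate ID range, a choice made after seeing the data, the 5FU difference of FOSL1 was 0.28.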

Other observations

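The following genes were chosen after their values were seen. CCN2, the close relative of CCN1 that is also a known YAP and SRF target, was at 7.78 and 7.74 in Nutlin-3 cells and 8.25 and 8.19 in 5FU cells, against 7.55 and 7.60 in control cells. Its 5FU difference was 0.65 (limma adjusted p = 0.114) and its Nutlin-3 difference 0.18, so that Nutlin-3 arrays lay above control for CCN2 and below control for CCN1; neither gene passed the threshold against control. NR4A1, an orphan nuclear receptor of the immediate early class, had the JUN order, with 7.04 and 7.07 in Nutlin-3 cells and 7.58 and 7.58 in 5FU cells, against 7.44 and 7.36 in control cells (Nutlin-3 minus 5FU -0.52, adjusted p = 0.144). PPP1R15A, which encodes the stress phosphatase subunit GADD34, was at 7.55 and 7.77 in Nutlin-3 cells and 8.22 and 8.35 in 5FU cells, against 7.75 and 7.81 in control cells (Nutlin-3 minus 5FU -0.62, adjusted p = 0.135). EGR2 and EGR3, relatives of EGR1, differed from control by 0.11 and -0.30 after Nutlin-3 and by 0.25 and 0.06 after 5FU, and none passed the test.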
